A study of Mus musculus with 28 samples.

Results

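Collagens are the main structural proteins of the extracellular matrix, and their expression was described here in mouse mammary epithelial cells and mammary tumours. The genes were those whose annotated symbol has the form Col, a number, a and a number, and 41 such genes were measured among 17097 genes on the array, with 1 probe set each. The choice used gene names and each probe set's mean over all 28 arrays, and no difference between groups. 1 further collagen gene is not reported here, and Col28a1 and Col6a6 were not analysed here.

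Expression was measured with microarrays in epithelial cells sorted by flow cytometry from female mice in which tamoxifen switched on a Cre recombinase. In the normal mice, K8CREERT2/RosaYFP marked luminal cells and K5CREERT2/RosaYFP marked basal cells with the yellow fluorescent protein YFP, with 2 arrays for each lineage at 8 weeks and 2 at 10 months after tamoxifen. K8CREERT2/PIK3CA-H1047R/RosaYFP mice (K8-PIK) also expressed the oncogenic PIK3CA-H1047R allele from the luminal driver, and their YFP+ luminal and basal cells were sorted at 8 weeks (2 arrays each). K5CREERT2/PIK3CA-H1047R/RosaYFP mice (K5-PIK) expressed it from the basal driver, and their YFP+ luminal and basal cells were sorted at 10 months (2 arrays each). Tumour cells came from K8CREERT2/PIK3CA-H1047R/RosaYFP mice (7 arrays), from K5CREERT2/PIK3CA-H1047R/RosaYFP mice (3 arrays) and from K8CREERT2/PIK3CA-H1047R/p53flox/flox/RosaYFP mice, called p53-deleted here (2 arrays). The labels give no time or age for the tumours. All sorted groups carried the YFP reporter, a tamoxifen-inducible Cre and the same tamoxifen schedule of 3 injections of 5 mg from 4 to 5 weeks of age, and all glands were digested with collagenase and hyaluronidase before sorting. Cre activity in these mice is limited to cells in which the keratin 8 or keratin 5 promoter is active, and any unrecombined cells keep their normal alleles. The labels number the replicates but do not say that each came from a separate animal, so p-values measure the spread between these samples, which may be technical.

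A collagen molecule is a triple helix of 3 alpha chains, made from 1 gene or from several, and the chain combination sets what it assembles into. Fibrillar collagens (types I, III and V among them) form the tension-bearing fibres of connective tissue. Type IV chains form the sheet-like network of the basement membrane, to which the basal, myoepithelial layer of the mammary duct is attached, and type VII forms the fibrils that anchor a basement membrane to the tissue beneath. Fibril-associated collagens decorate fibres, type VI forms beaded filaments close to the basement membrane, and type VIII is a short chain collagen that forms hexagonal networks.

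Several collagen genes lie beside the gene of a partner chain, and the sequences between them are shown because the values of these pairs are compared in the results. RefSeq (GRCm38.p6) held start-site windows for 32 of the 41 genes, and 7 pairs of collagen genes were direct neighbours. The start sites of Col4a1 and Col4a2, which encode the major basement membrane chains, lie 21 bases apart on opposite strands of chromosome 8. The stretch that holds both, chr8:11312801-11312830 on the plus strand, has the bases from the Col4a2 start (11312805) to the Col4a1 start (11312826) in capitals.
Col4a1-Col4a2: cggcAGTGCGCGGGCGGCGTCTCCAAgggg
Col4a5 and Col4a6, whose products assemble in one type IV molecule, start 1343 bases apart on the X chromosome, also on opposite strands. Their windows, each the 250 bases before the start, are chrX:141475169-141475418 on the plus strand and chrX:141474077-141474326 on the minus strand. Capitals mark matches, on either strand, to any of 4 promoter motifs, and no match overlapped another in the windows shown. The first was the GC box, searched as GGGCGG, and the next was the box named after its letters CCAAT. The others were the box of core promoters searched as TATAAA, and the AP-1 element, searched as TGANTCA.
Col4a5: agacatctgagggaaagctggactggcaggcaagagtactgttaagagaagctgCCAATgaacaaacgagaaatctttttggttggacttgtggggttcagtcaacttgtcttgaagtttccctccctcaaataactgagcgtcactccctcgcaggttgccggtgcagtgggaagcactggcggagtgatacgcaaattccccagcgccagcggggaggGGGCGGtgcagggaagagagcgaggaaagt
Col4a6: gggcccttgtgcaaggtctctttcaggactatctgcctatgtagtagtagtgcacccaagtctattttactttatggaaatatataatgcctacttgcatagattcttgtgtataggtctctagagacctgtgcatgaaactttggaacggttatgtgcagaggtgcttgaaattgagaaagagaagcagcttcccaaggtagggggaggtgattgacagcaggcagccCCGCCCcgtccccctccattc

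The 3 chains of the classical type VI molecule are shown because Col6a3 parted from its partners in sorted cells. Col6a1 (chr10:76726045-76726294, minus strand) and Col6a2 (chr10:76623631-76623880, minus strand, 1 of 2 windows) are neighbours, whereas Col6a3 (chr1:90843972-90844221, minus strand) lies on another chromosome.
Col6a1: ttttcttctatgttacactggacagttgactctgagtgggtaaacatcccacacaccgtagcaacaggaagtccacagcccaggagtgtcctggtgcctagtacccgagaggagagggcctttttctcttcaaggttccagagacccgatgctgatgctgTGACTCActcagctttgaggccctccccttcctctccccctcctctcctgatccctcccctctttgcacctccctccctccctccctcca
Col6a2: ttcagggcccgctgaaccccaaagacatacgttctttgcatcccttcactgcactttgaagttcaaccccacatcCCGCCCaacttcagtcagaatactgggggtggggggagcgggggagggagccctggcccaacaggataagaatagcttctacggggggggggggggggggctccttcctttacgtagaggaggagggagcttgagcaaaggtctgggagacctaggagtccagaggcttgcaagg
Col6a3: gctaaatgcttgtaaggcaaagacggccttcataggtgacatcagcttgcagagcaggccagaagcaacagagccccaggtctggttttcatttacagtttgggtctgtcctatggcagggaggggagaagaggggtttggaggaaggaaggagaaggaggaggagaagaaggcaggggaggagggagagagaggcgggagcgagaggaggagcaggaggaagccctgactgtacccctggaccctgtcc
Over the 35 collagen windows, GGGCGG was found in 60.0%, against 32.7% of all 32851 windows of this length. CCAAT was found in 34.3% of collagen windows and 33.8% of all windows, TATAAA in 11.4% and 12.4%, and TGANTCA in 2.86% and 6.75%. The single collagen window with TGANTCA was that of Col6a1, and the Col6a3 window held none of the 4 motifs. These matches describe letters in the windows and were not tested as binding sites.

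Values are log2 expression as deposited, differences are log2 differences of group means ± SE, and a gene was called where limma's test, adjusted over all genes tested by the Benjamini-Hochberg method, gave p below 0.05. Of the 41 genes, 36 passed the filter on low values in sorted cells and 35 in tumours (above the array's 40th percentile, 3.89 to 3.99, on at least 2 arrays). Col19a1, Col1a2, Col24a1, Col26a1 and Col6a5 did not pass it, nor did Col4a3 in tumours. Col1a2, the partner chain of Col1a1 in type I collagen, was read by 1 probe set that stayed at or below 3.92 on all 28 arrays, so type I collagen is described through Col1a1 alone. The sorted gates differed in the direction of their labels. All 8 basal epithelial markers (such as Krt5 and Krt14) were higher in the basal gate in each of 4 comparisons of gates. Of 10 luminal epithelial markers, 9 were lower in the basal gate of normal cells at 8 weeks and all 10 at 10 months. In K8-PIK and K5-PIK cells 8 of the 10 were lower. The luminal list mean was still 7.85 to 8.07 in normal basal arrays at 8 weeks, against 9.70 to 9.78 in luminal arrays. Whether this signal came from luminal cells in the basal gate was not tested. Over all 11 groups, 25 of the 36 tested collagen genes differed by limma's F test, against 56.4% of all genes.

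**Figure D1:**
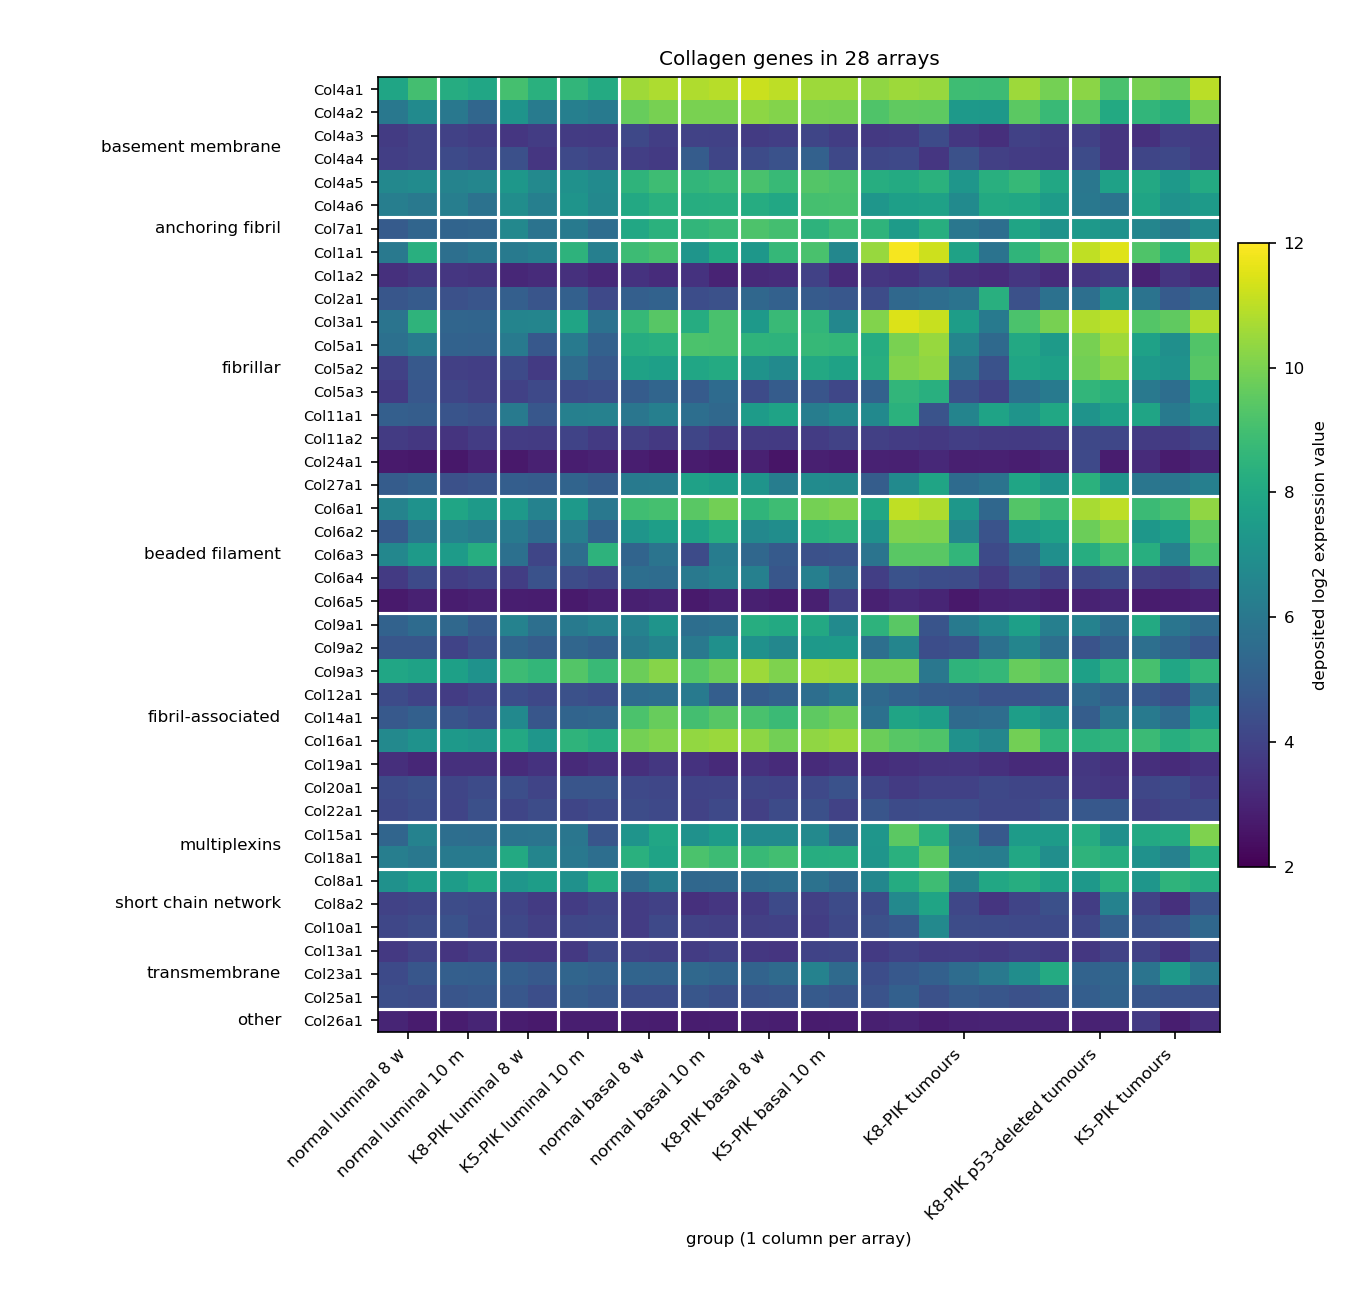
Log2 expression of the 41 collagen genes (rows, grouped by class) on the 28 arrays (columns, grouped by sample type). Col4a2 is brighter on all basal columns than on all luminal columns, Col8a1 shows the opposite, and fibrillar genes such as Col1a1 span 5.82 to 11.86 across the 7 K8-PIK tumours.

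Normal basal cells expressed more of most collagens than normal luminal cells. The normal basal cells carried K5CREERT2 and the normal luminal cells K8CREERT2, so lineage and Cre driver cannot be told apart between the normal gates. At 8 weeks, 20 of 36 tested collagen genes were higher in basal cells and 1 was lower, where 10.4% of all tested genes were higher and 19.9% lower. The median difference was 1.13 over the 41 collagen genes and -0.03 over all genes. At 10 months 21 were higher and 3 lower, with 17.6% and 25.8% of all genes, and medians of 1.18 and -0.07. The same comparison of gates gave 16 higher and 1 lower in K8-PIK cells at 8 weeks (8.9% and 10.6% of all genes) and 18 higher and 2 lower in K5-PIK cells at 10 months (13.2% and 10.4%). These 4 comparisons share no arrays, but the error of each gene was pooled over all 16 sorted arrays, so their calls are not independent. In all 4 of them 14 genes were called higher in the basal gate, Col4a1, Col4a2, Col4a5, Col4a6, Col5a1, Col5a2, Col6a1, Col7a1, Col9a2, Col9a3, Col14a1, Col16a1, Col18a1 and Col27a1, and Col8a1 alone was called lower in all 4. Of all genes tested, 4.81% were called higher in all 4 and 4.11% lower. In a fit of all 28 arrays, which includes the more variable tumours, the counts of calls fell to 10 for normal cells at 8 weeks, 9 for K8-PIK cells and 11 for K5-PIK cells.

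The basement membrane chains Col4a1 and Col4a2 were higher in every basal array than in every luminal array. Col4a2 read 5.99 and 6.80 in normal luminal cells at 8 weeks, 5.99 and 5.30 at 10 months, 7.19 and 6.17 in K8-PIK luminal cells and 6.31 and 6.06 in K5-PIK luminal cells. In the basal gate it read 9.68 and 9.93 at 8 weeks, 9.98 and 9.99 at 10 months, 10.32 and 10.14 in K8-PIK cells and 10.00 and 9.96 in K5-PIK cells. All 8 basal arrays were above all 8 luminal arrays, and the luminal arrays were more spread. The Col4a2 difference between the normal gates was 3.41 ± 0.33 at 8 weeks (adjusted p = 2.56e-05, 10.6-fold) and 4.34 ± 0.33 at 10 months (adjusted p = 1.89e-06, 20.3-fold) by limma. It was 3.55 ± 0.33 in K8-PIK cells and 3.79 ± 0.33 in K5-PIK cells. Its divergently transcribed neighbour Col4a1 read 7.88 to 9.03 on the 8 luminal arrays and 10.53 to 11.21 on the 8 basal arrays, again with no overlap. The Col4a1 differences were 2.23 ± 0.32 and 2.81 ± 0.32 in normal cells at 8 weeks and 10 months, 2.43 ± 0.32 in K8-PIK cells and 2.19 ± 0.32 in K5-PIK cells, all called.

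Col4a5 and Col4a6, the X-linked pair, were also higher in the basal gate. Col4a5 read 6.66 and 6.83 in normal luminal cells at 8 weeks and 6.49 and 6.61 at 10 months, against 8.51, 8.91, 8.57 and 8.76 in normal basal cells. Col4a6 read 6.29, 6.03, 6.28 and 5.77 in the same luminal arrays and 8.04, 8.35, 8.21 and 8.26 in the basal ones. For both genes the normal gates did not overlap, and replicates differed little. The difference was 1.96 ± 0.22 at 8 weeks and 2.12 ± 0.22 at 10 months for Col4a5, and 2.04 ± 0.24 and 2.21 ± 0.24 for Col4a6, with limma adjusted p-values of 0.000111 or less. The other basement membrane pair, Col4a3 and Col4a4, whose chains are known from kidney glomeruli, was called in none of the 18 comparisons. Both lay near the filter limit (means of 3.81 and 4.10 over 28 arrays), and Col4a3 was not tested between tumour groups.

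The anchoring fibril gene Col7a1 followed the same order. It read 4.88 and 5.26 in normal luminal cells at 8 weeks and 5.23 and 5.31 at 10 months, against 7.99, 8.40, 8.58 and 8.79 in normal basal cells, so the gates were far apart. The difference was 3.13 ± 0.29 at 8 weeks (8.73-fold, adjusted p = 1.68e-05) and 3.41 ± 0.29 at 10 months (10.7-fold, adjusted p = 3.57e-06) by limma. It was 2.87 ± 0.29 in K8-PIK cells and 2.83 ± 0.29 in K5-PIK cells.

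**Figure D2:**
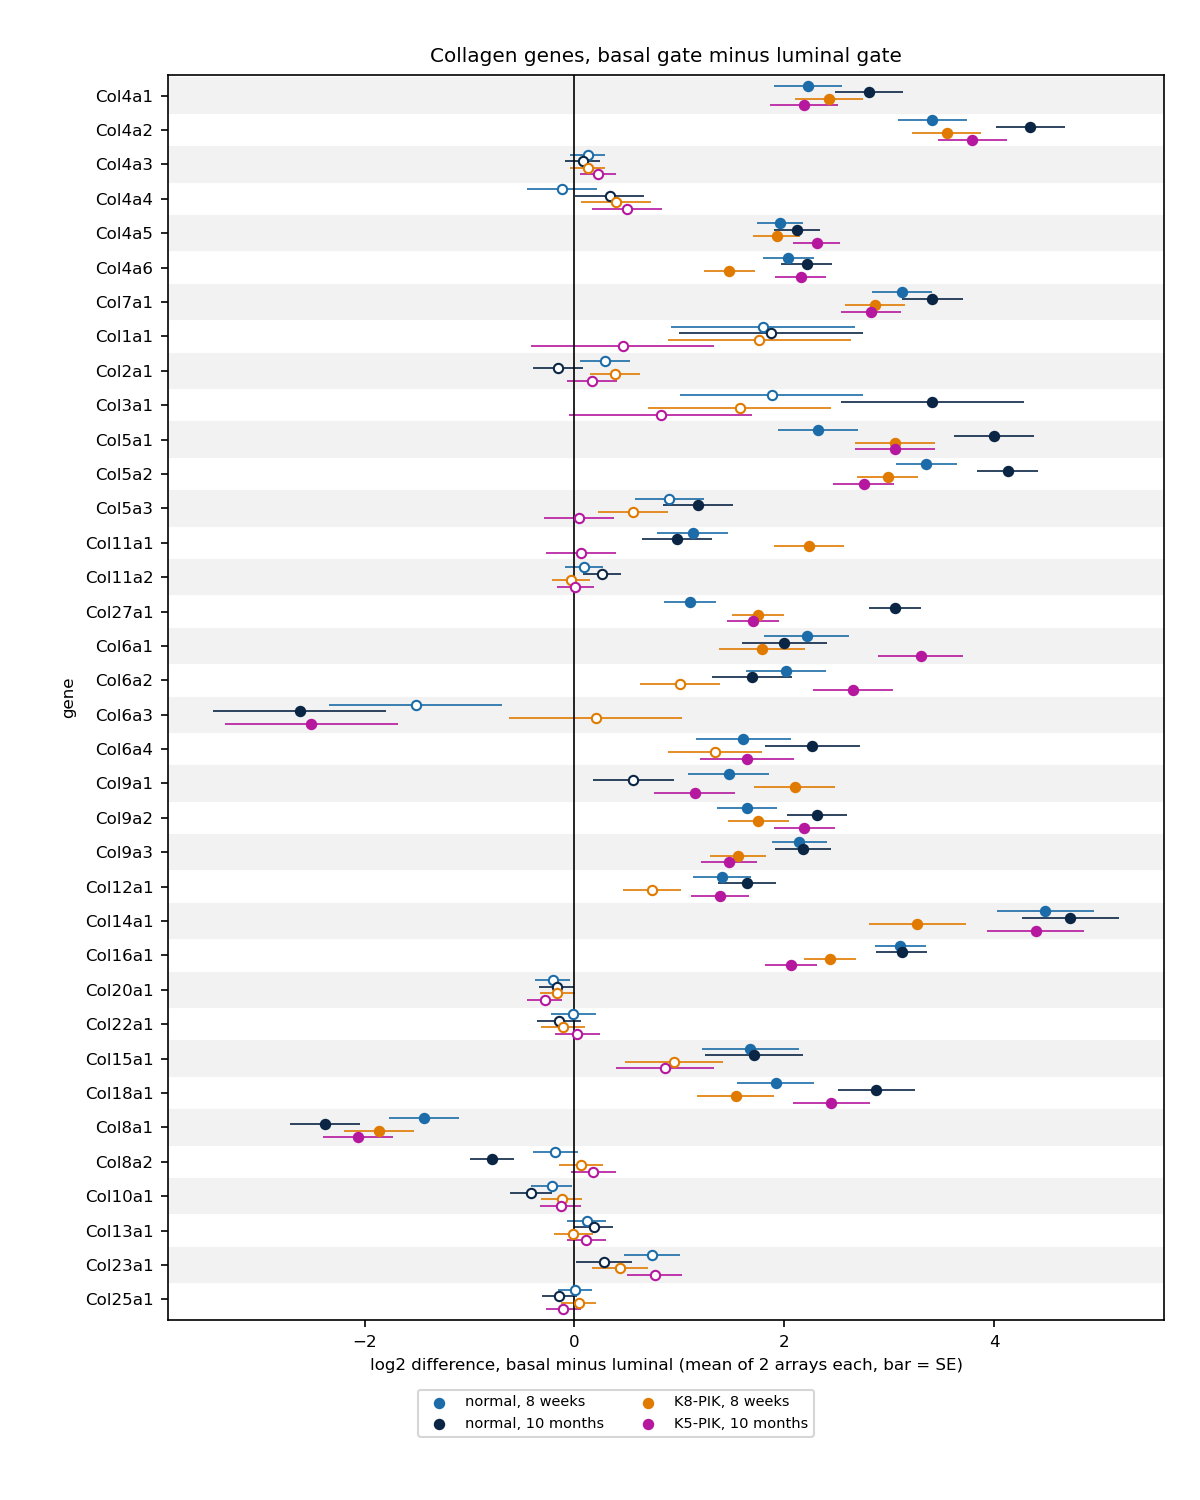
Log2 difference, basal gate minus luminal gate, for each tested collagen gene in the 4 comparisons of gates (2 arrays per group, bars are SE, filled points are called at adjusted p below 0.05). Col14a1, Col4a2, Col5a2 and Col7a1 lie to the right in all 4, and Col8a1 lies to the left in all 4.

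Among the fibril-associated collagens, Col14a1 showed the largest gate difference of any collagen gene in normal cells. It read 4.80 and 5.07 in luminal cells at 8 weeks and 4.59 and 4.36 at 10 months, against 9.18, 9.68, 9.01 and 9.39 in basal cells. Every normal basal array was far above every normal luminal array. The difference was 4.49 ± 0.46 at 8 weeks (22.5-fold, limma adjusted p = 3.87e-05) and 4.73 ± 0.46 at 10 months (26.5-fold, limma adjusted p = 1.12e-05). Col16a1 read 6.71 to 7.40 in normal luminal and 9.90 to 10.48 in normal basal cells, a difference of 3.11 ± 0.25 at 8 weeks and 3.12 ± 0.25 at 10 months. The type IX chains Col9a1, Col9a2 and Col9a3, best known from cartilage, were higher in basal cells at 8 weeks by 1.47 ± 0.39, 1.64 ± 0.29 and 2.15 ± 0.26. At 10 months Col9a2 and Col9a3 differed by 2.31 ± 0.29 and 2.18 ± 0.26, while Col9a1 was not called (0.56 ± 0.39, limma adjusted p = 0.259). A dimmer second probe set of Col9a1 gave 0.44 and 0.01. In all, 6 of 8 tested fibril-associated genes were higher at 8 weeks and 5 of 8 at 10 months. Both multiplexins, Col15a1 and Col18a1, which are basement membrane zone collagens, were higher at both times, and Col18a1 differed by 1.92 ± 0.37 at 8 weeks and 2.88 ± 0.37 at 10 months.

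The fibrillar genes split into those with tight replicates and those without. Col5a1 and Col5a2, whose type V chains sit in the core of heterotypic fibrils, were higher in basal cells. Col5a2 read 3.94 and 4.78 in luminal cells at 8 weeks and 3.88 and 3.86 at 10 months, against 7.77, 7.66, 7.90 and 8.11 in basal cells. The luminal values lay near the filter limit and the basal values far above it, giving differences of 3.35 ± 0.29 at 8 weeks and 4.13 ± 0.29 at 10 months (limma adjusted p = 1.16e-05 and 1.16e-06). A dimmer second probe set of Col5a2 gave only 0.67 and 0.46. Col5a1 differed by 2.32 ± 0.38 and 4.00 ± 0.38. Col1a1 read 6.04 and 8.32 in luminal cells at 8 weeks and 5.66 and 5.87 at 10 months, against 8.86 and 9.10, then 7.21 and 8.08, in basal cells. Col3a1, the type III chain, read 5.84, 8.50, 5.27 and 5.20 in those luminal arrays and 8.72, 9.39, 8.18 and 9.12 in the basal arrays. The 8-week luminal replicate 2 was high for both genes, close to the basal level. Col3a1 was not called at 8 weeks (1.88 ± 0.87, limma adjusted p = 0.121) and was higher in basal cells at 10 months (3.41 ± 0.87, limma adjusted p = 0.00744). That call was lost without basal replicate 2 (2.94, adjusted p = 0.0555). A much dimmer second probe set of Col3a1 (mean 3.40 over 28 arrays) gave 0.16 at 8 weeks and 0.15 at 10 months. Col1a1 was not called in any of the 4 comparisons, with differences of 1.80, 1.87, 1.76 and 0.46.

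Col27a1, a fibrillar collagen of cartilage and other tissues, was the only collagen gene called between 10 months and 8 weeks in normal basal cells. It read 6.10 and 6.15 at 8 weeks and 7.71 and 7.52 at 10 months, with no overlap. A dimmer second probe set averaged 5.70 at 8 weeks and 6.41 at 10 months. On the brighter probe set the rise was 1.49 ± 0.25 (2.81-fold, limma adjusted p = 0.021), where 1.27% of all genes were called. Leaving out any 1 of the 4 arrays ended this call (adjusted p from 0.0531 to 0.247, rise from 1.40 to 1.59). In normal luminal cells no collagen gene was called between the times (limma, 0.0608% of all genes), and 4 had an unadjusted p below 0.05. The gap between the gates did not change between the times for any collagen gene at the threshold (0.0532% of all genes called, lowest adjusted p = 0.0546), and 2 had an unadjusted p below 0.05.

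The type VI chains did not move together. Col6a1 read 6.47 and 7.09 in normal luminal cells at 8 weeks and 7.88 and 7.45 at 10 months, against 8.93, 9.06, 9.45 and 9.89 in normal basal cells. It was higher in basal cells by 2.21 ± 0.41 and 2.00 ± 0.41, and Col6a2 by 2.02 ± 0.38 and 1.69 ± 0.38 (limma adjusted p of 0.00363 or less for both genes). Col6a3, the chain that joins them in the same molecule, read 6.64, 7.45, 7.47 and 8.24 in the luminal arrays and 5.22, 5.84, 4.27 and 6.20 in the basal arrays. Every normal luminal array was above every normal basal array, the reverse of the order for Col6a1. The Col6a3 difference was -1.51 ± 0.83 at 8 weeks (limma adjusted p = 0.188) and -2.62 ± 0.83 at 10 months (6.13-fold lower, limma adjusted p = 0.0217). The 10-month call was lost without luminal replicate 2 (-2.24, adjusted p = 0.129) or basal replicate 1 (-1.65, adjusted p = 0.215). In K5-PIK cells Col6a3 was lower in the basal gate by -2.51 (limma adjusted p = 0.0439), but the luminal replicates read 5.56 and 8.47, and without replicate 2 the difference was -1.05 (adjusted p = 0.361). That call was also lost without either basal replicate (adjusted p = 0.14 and 0.128). In K8-PIK cells it did not differ by the test (0.20, limma adjusted p = 0.899), with 5.70 and 4.09 in luminal and 5.36 and 4.85 in basal cells. Col6a4, another type VI chain, was higher in basal cells by 1.61 ± 0.45 and 2.27 ± 0.45. Its normal luminal values of 3.69 to 4.25 lay near the filter limit.

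Col8a1, a type VIII chain found in vessel walls and in the basement membrane of the cornea, was the collagen gene called higher in luminal cells in all 4 comparisons. It read 7.08 and 7.52 in normal luminal cells at 8 weeks and 7.51 and 7.95 at 10 months, against 5.54, 6.20, 5.33 and 5.37 in normal basal cells. K8-PIK luminal cells read 7.25 and 7.56 and K5-PIK luminal cells 7.04 and 8.17, while the basal gates of those mice read 5.49 and 5.60, and 5.75 and 5.34. The 8 luminal arrays were all above the 8 basal arrays. The differences were -1.43 ± 0.33 at 8 weeks (2.7-fold lower in basal cells, limma adjusted p = 0.00706), -2.38 ± 0.33 at 10 months (5.21-fold, adjusted p = 0.000161), -1.87 in K8-PIK and -2.06 in K5-PIK cells. The 8-week call was lost without luminal replicate 2 (-1.21, adjusted p = 0.0569) or basal replicate 1 (-1.10, adjusted p = 0.0719). All 3 probe sets of Col8a1 were lower in basal cells, the others by -1.67 and -2.10 at 8 weeks and by -2.75 and -3.30 at 10 months. Its partner chain Col8a2 was lower in basal cells at 10 months by -0.78 ± 0.21 (limma adjusted p = 0.0103). It read 3.38 and 3.59 in those basal arrays, below the filter limit, and 4.32 and 4.22 in the luminal arrays. The Col8a2 call was lost without luminal replicate 1 (-0.73) or basal replicate 1 (-0.68).

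**Figure D3:**
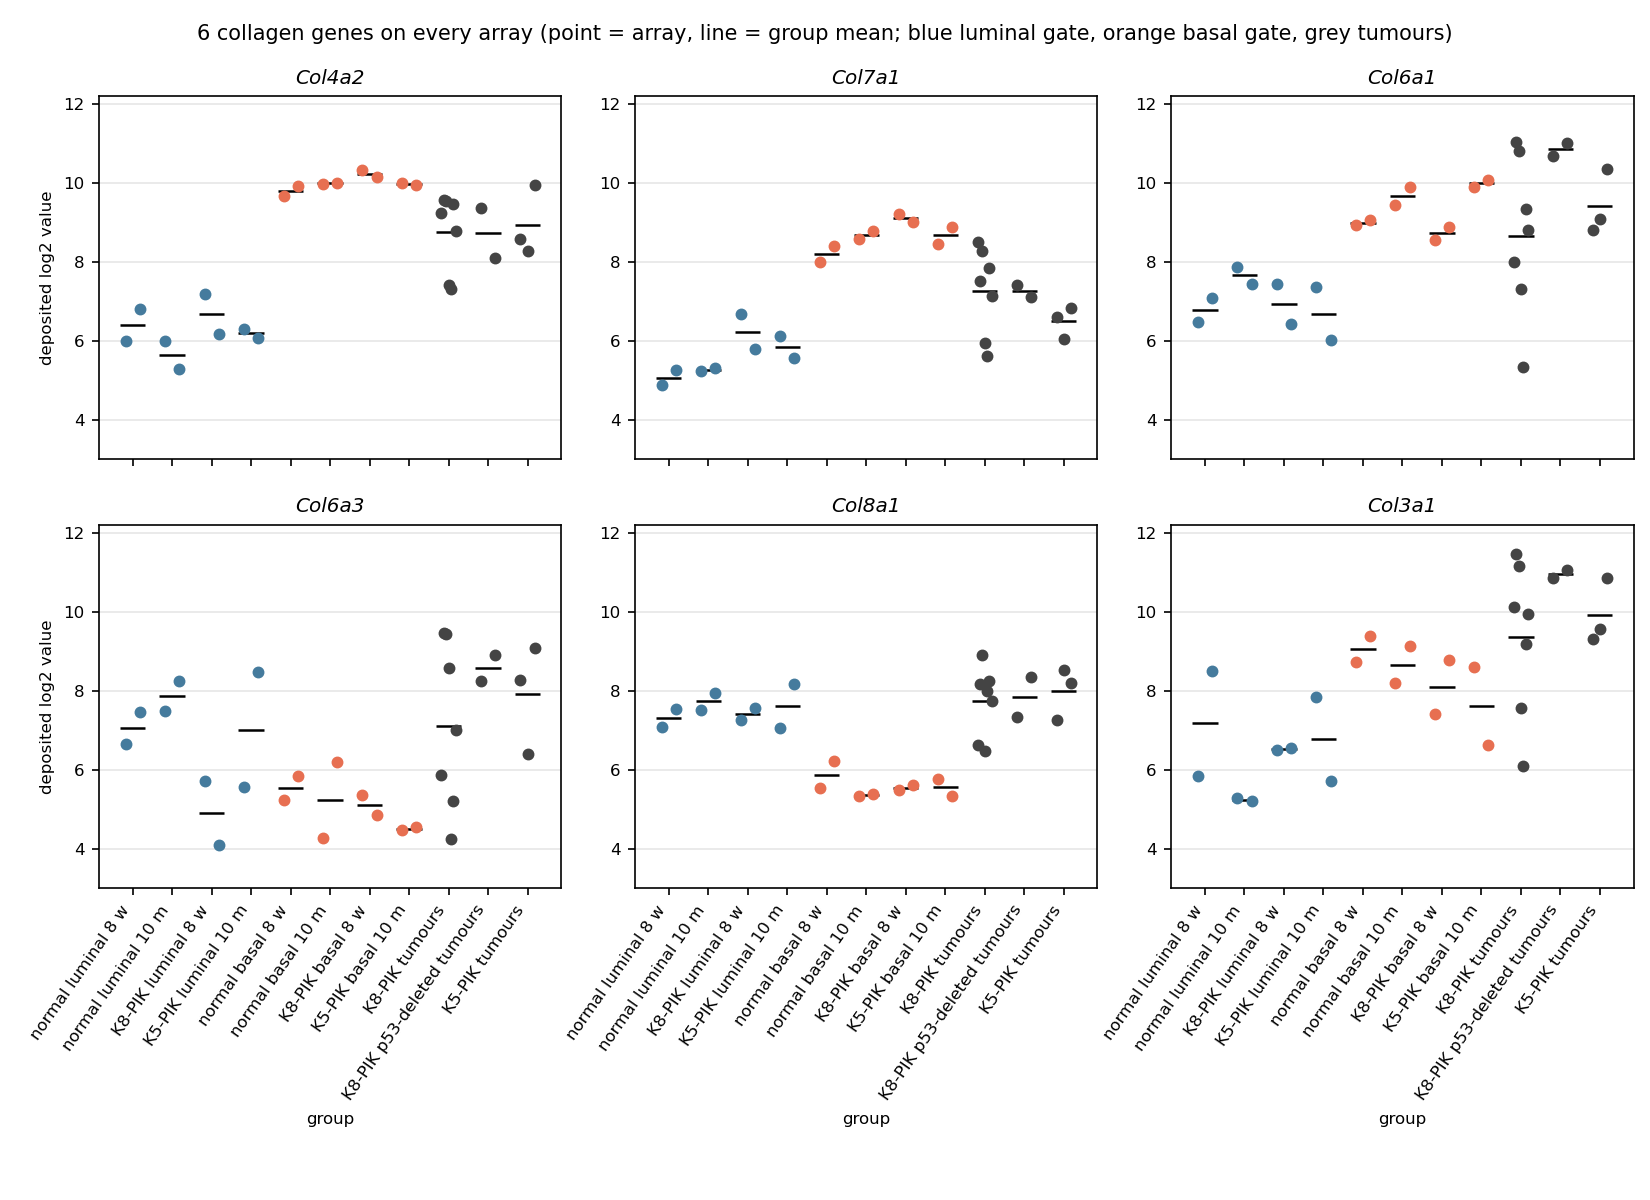
Log2 expression of Col4a2, Col7a1, Col6a1, Col6a3, Col8a1 and Col3a1 on each array (points) in the 11 groups, with the group mean as a line. The gates separate for Col4a2, Col7a1, Col6a1 and Col8a1, whereas Col3a1 spans 6.09 to 11.47 among the 7 K8-PIK tumours.

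Markers of other cell types differed between the gates too. The mean of 12 endothelial markers (Pecam1, Cdh5 and others) was 4.83 to 5.76 in normal luminal arrays at 8 weeks and 6.39 to 7.41 in basal arrays, and 8 of the 12 were higher in basal cells at 8 weeks and 11 of 12 at 10 months. The mean of 10 fibroblast markers was 5.36 to 5.81 in luminal and 6.46 to 6.88 in basal arrays at 8 weeks, with 3 higher (Mmp2, Fbln1 and Mfap5) and 1 lower (Gpx3). The fibroblast marker Pdgfra stayed at or below 3.82 on all 16 sorted arrays, under the filter limit. Of the 2 adipocyte markers measured, Adipoq stayed at or below 3.68, whereas Fabp4 read 7.69 to 9.57 in normal luminal and 10.05 to 10.63 in normal basal arrays and was higher in basal cells at 10 months (2.01 ± 0.69, limma adjusted p = 0.032). In K8-PIK cells no endothelial marker was called between the gates, although the list means did not overlap (4.88 to 5.64 in luminal and 5.79 to 5.87 in basal arrays). In K5-PIK cells no endothelial marker was called either (mean 4.48 to 5.06 in luminal and 4.46 to 5.49 in basal arrays). The fibroblast-list genes Mmp2 and Fbln1 were higher in the basal gate in all 4 comparisons. Of 4 pericyte markers, 3 were higher in normal basal cells at each time and 1 in each PIK3CA-H1047R comparison. The part of these cells in the collagen differences was not tested. In such bulk samples, fewer cells of a type and less RNA per cell cannot be told apart.

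After 8 weeks of PIK3CA-H1047R expression from the luminal driver, no collagen gene was called in either gate. Against normal luminal cells, K8-PIK luminal cells had 0 of 36 called by limma (0.35% of all genes), and 5 genes had an unadjusted p below 0.05. Col7a1 read 6.67 and 5.80 in K8-PIK luminal cells, above the 4.88 and 5.26 of normal luminal cells, but the difference of 1.17 ± 0.29 missed the threshold (limma adjusted p = 0.131). Leaving out K8-PIK luminal replicate 2 raised the count to 3. K8-PIK basal cells also had 0 of 36 called against normal basal cells (limma, 0.418% of all genes), and 5 had an unadjusted p below 0.05. That comparison changed the Cre driver together with the oncogene, since normal basal cells carried K5CREERT2, so the effects of driver and oncogene cannot be told apart. The basal-luminal gap of K8-PIK cells differed from the normal gap for no collagen gene (limma, 0.0076% of all genes), and 1 had an unadjusted p below 0.05. The normal gap was taken across Cre drivers and the gaps of K8-PIK and K5-PIK cells within the same driver. Driver and oncogene thus cannot be told apart in comparisons of gaps either.

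At 10 months few collagen genes were called between K5-PIK and normal cells, and none was called in either gate in the fit of all 28 arrays. In the basal gate 3 of 36 genes were higher and 1 lower, shares close to the 8.28% and below the 8.02% of all genes, respectively, with a median difference of 0.15 over the 41 genes and 0.06 over all genes. Col9a1 read 5.60 and 5.75 in normal and 8.05 and 6.77 in K5-PIK basal cells, and was higher by 1.73 ± 0.39 (3.33-fold, limma adjusted p = 0.0123). Its partner chain Col9a3 was higher by 0.98 ± 0.26 and Col4a6 by 0.84 ± 0.24, and Col27a1 was lower by -0.83 ± 0.25. The dimmer probe set of Col27a1 averaged 6.41 in normal and 6.11 in K5-PIK basal cells. Although the arrays of the groups did not overlap for these genes, the calls rested on few of them. For Col4a6 and Col27a1, leaving out any 1 of the 4 arrays ended the call (adjusted p from 0.0799 to 0.171 and from 0.076 to 0.209). Col9a1 was lost without normal basal replicate 1 (1.66, adjusted p = 0.0897) or K5-PIK basal replicate 1 (1.09, adjusted p = 0.0661). Col9a3 was lost without normal basal replicate 1 (0.78, adjusted p = 0.202) or without either K5-PIK basal replicate (adjusted p = 0.0783 and 0.12). Markers moved with this comparison too, with 7 of 12 endothelial markers lower in K5-PIK basal cells, and their part in the collagen values was not tested.

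In the luminal gate, K5-PIK cells had 5 collagen genes higher and none lower than normal luminal cells at 10 months (2.08% and 4.32% of all genes). The median difference was 0.26 over the collagen genes and -0.03 over all genes. Col11a1, a minor fibrillar chain, read 4.59 and 4.46 in normal and 6.36 and 6.40 in K5-PIK luminal cells, and Col9a3 read 7.69 and 7.08 against 9.34 and 8.80. Both were clear of the normal range, with differences of 1.85 ± 0.34 (limma adjusted p = 0.00877) and 1.68 ± 0.26 (limma adjusted p = 0.00428). Col5a2, Col16a1 and Col4a6 were higher by 1.25 ± 0.29, 1.05 ± 0.25 and 0.90 ± 0.24. Each of these 3 calls was lost without normal luminal replicate 1, normal luminal replicate 2 or K5-PIK luminal replicate 1 (adjusted p from 0.0882 to 0.33). Col11a1 was lost without normal luminal replicate 1 or 2 (adjusted p = 0.0636 and 0.0826), and Col9a3 without normal luminal replicate 2 (adjusted p = 0.0652). K5-PIK luminal replicate 1 stood apart in stromal genes, with Col1a1 at 8.48 against 6.33 in replicate 2 and Mmp2 at 7.67 against 6.03. Of 8 basal epithelial markers, 4 were higher in K5-PIK luminal cells (list mean 7.19 to 7.35, against 5.91 to 6.21 in normal luminal cells at 10 months), and their part in these values was not tested. Here also the Cre driver differed between the groups and cannot be told apart from the oncogene. The dimmer probe set of Col27a1 averaged 6.41 and 5.00 in normal basal and luminal cells, and 6.11 and 4.95 in K5-PIK cells. On its brighter probe set the basal-luminal gap was narrower in K5-PIK than in normal cells (-1.36 ± 0.35, limma adjusted p = 0.0396, 7.15% of all genes called). That call was lost in 7 of 8 fits that left out 1 array, all but the one without K5-PIK luminal replicate 2 (adjusted p up to 0.154).

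K8-PIK tumours expressed more of many collagens than the normal luminal cells of the driver's lineage. Against the mean of the 8-week and 10-month normal luminal groups, 15 of 36 tested collagen genes were higher and 0 lower, where 4.47% and 6.13% of all genes were called. The median difference was 1.12 over the 41 genes and 0.01 over all genes, and 36 of 41 differences were above 0. By class, 6 of 9 fibrillar, 4 of 6 basement membrane, 4 of 8 fibril-associated and 0 of 4 beaded filament genes were higher, with Col7a1. Leaving out normal luminal arrays changed the count most, to 6 without 8-week replicate 1, 8 without 10-month replicate 1 and 7 without 10-month replicate 2.

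The basement membrane genes Col4a6 and Col4a2 rose with less spread between tumours than the fibrillar gene Col1a1 (SD of 0.43 for Col4a6 and 0.99 for Col4a2, against 2.11 for Col1a1). Col4a2 read from 7.31 to 9.57 in the 7 tumours (median 9.23), above the 5.30 to 6.80 of the 4 normal luminal arrays, a rise of 2.74 ± 0.43 (6.69-fold, limma adjusted p = 0.000694). Col4a6 read 6.80 to 8.08 (median 7.65) against 5.77 to 6.29, a rise of 1.47 ± 0.20 (limma adjusted p = 0.000231). Col4a5 read 7.26 to 8.70 (median 8.22) against 6.49 to 6.83, a rise of 1.49 ± 0.27 (limma adjusted p = 0.00171). For these 3 genes no tumour overlapped the normal luminal arrays. Col4a1 rose by 1.68 ± 0.35, with tumours 4 and 5 at 8.88 and 8.86, inside the luminal range of 7.88 to 9.03, and it was lost without 8-week luminal replicate 1 (1.39, adjusted p = 0.0551). Col7a1 read 5.62 to 8.51 (median 7.50), above 4.88 to 5.31, and rose by 2.09 ± 0.41 (limma adjusted p = 0.00374). In the same comparison 5 of 8 basal epithelial markers were higher (list mean 6.82 to 9.72 in tumours and 5.91 to 7.04 in luminal cells) and 2 of 10 luminal markers were lower. Their part in the basement membrane values was not tested.

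The fibrillar genes Col5a2, Col3a1 and Col1a1 had the largest called rises and varied widely between tumours, whereas the other called fibrillar genes rose less than Col4a2. Col1a1 read 10.46, 11.86, 11.23, 7.75, 5.82, 8.54 and 9.35 in tumours 1 to 7, and Col3a1 read 10.11, 11.47, 11.16, 7.55, 6.09, 9.18 and 9.93. Tumours 2 and 3 were the highest and tumours 4 and 5 lay within the normal luminal range for both genes. Col5a2 was also highest in tumours 2 and 3 (10.13 and 10.35) and lowest in tumour 5 (4.53), with tumour 4 at 5.85, above the normal luminal range of 3.86 to 4.78. The rises were 2.81 ± 0.88 for Col1a1 (limma adjusted p = 0.0449), 3.15 ± 0.81 for Col3a1 (0.0172) and 3.70 ± 0.78 for Col5a2 (adjusted p = 0.00527). The dimmer probe sets of Col3a1 and Col5a2 gave 1.63 and 1.43. Col1a1 lost its call without 8-week luminal replicate 1 (2.24, adjusted p = 0.235), either 10-month luminal replicate, or tumour 1, 2, 3 or 7 (adjusted p from 0.0624 to 0.14). Col3a1 lost it without 8-week luminal replicate 1 (2.48, adjusted p = 0.135) or either 10-month replicate (adjusted p = 0.0668 and 0.0704). Col5a1 rose by 2.49 ± 0.68 (limma adjusted p = 0.0242) and lost its call without any 1 of the 4 luminal arrays (adjusted p from 0.0595 to 0.11).

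Col6a1, Col6a2 and Col6a3 also varied widely between tumours. Col6a1 read 5.33 to 11.04 in the 7 tumours (median 8.82) and Col6a3 4.23 to 9.44 (median 6.99), each overlapping the normal luminal arrays. Neither was called (1.44, limma adjusted p = 0.225, and -0.34, adjusted p = 0.858), nor was Col6a2 (1.81, adjusted p = 0.121). The fibroblast marker mean was 6.10, 7.84, 6.92, 5.61, 5.33, 6.39 and 6.42 in tumours 1 to 7, highest in tumour 2 and lowest in tumour 5. Pdgfra was 4.02 and 4.56 in tumours 2 and 3 and at most 3.76 in the others. The part of such cells in the fibrillar and type VI values was not tested. The other collagens called higher included Col11a1 (2.27 ± 0.50), Col14a1 (1.98 ± 0.48), Col27a1 (1.76 ± 0.43) and Col16a1 (1.54 ± 0.47). Col14a1 was lost without 8-week luminal replicate 1 or 10-month replicate 2 (adjusted p = 0.0676 and 0.0626), and Col27a1 without 8-week replicate 1 or either 10-month replicate (adjusted p from 0.0532 to 0.0696).

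**Figure D4:**
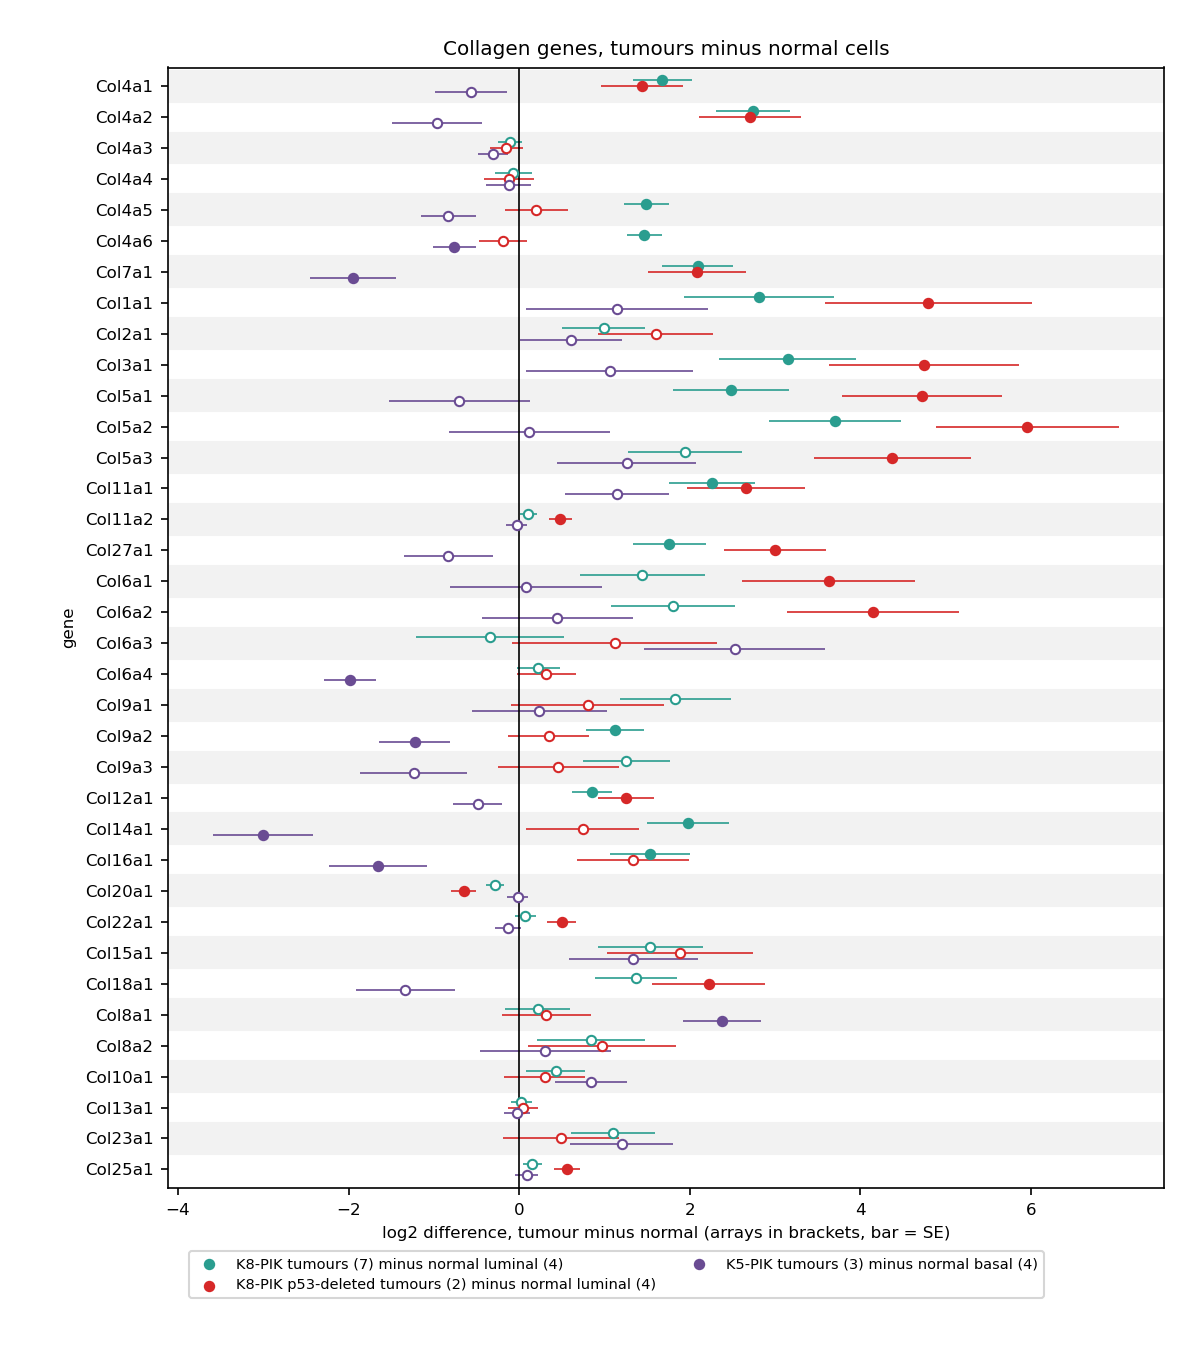
Log2 difference of tumours from normal cells of the driver's lineage for each tested collagen gene, with 7 K8-PIK, 2 p53-deleted and 3 K5-PIK tumours and 4 normal arrays in each reference (bars are SE, filled points are called at adjusted p below 0.05). Col5a2 reaches 5.96 in p53-deleted tumours, and Col14a1 and Col7a1 are below 0 only in K5-PIK tumours, whose reference is normal basal cells.

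K5-PIK tumours, set against normal basal cells, had 1 of 36 tested collagen genes higher and 6 lower. Of all genes 15.5% were higher and 14.5% lower, so the collagen share was below the first and close to the second. The median difference was -0.03 over the collagen genes and 0.05 over all genes. Col8a1 read 7.26, 8.52 and 8.19 in the tumours, above the 5.33 to 6.20 of the 4 normal basal arrays and within or above the 7.08 to 7.95 of normal luminal cells. It was higher than in normal basal cells by 2.38 ± 0.46 (5.2-fold, limma adjusted p = 0.000756). Col14a1 read 6.10, 5.52 and 7.32, below the 9.01 to 9.68 of basal cells, a fall of -3.00 ± 0.59 (8-fold, limma adjusted p = 0.000794). Col7a1 read 6.60, 6.04 and 6.83 against 7.99 to 8.79, lower by -1.95 ± 0.51 (3.86-fold, limma adjusted p = 0.00623). These 3 genes lay on the luminal side of the normal basal range in every K5-PIK tumour, but not all collagens did. Col15a1 read 8.03, 8.15 and 10.08, above the 7.07 to 7.91 of basal cells and the 5.28 to 6.44 of luminal cells, and was not called.

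Col6a4 read 3.88, 3.76 and 4.12, near the filter limit, against 5.54 to 6.36 in basal cells, and was lower by -1.98 ± 0.30 (limma adjusted p = 0.000117). Col16a1, Col9a2 and Col4a6 were lower by -1.66 ± 0.57, -1.23 ± 0.42 and -0.76 ± 0.25. The Col16a1 call was lost without any 1 of the 7 arrays (adjusted p from 0.06 to 0.105). The Col4a6 call was lost without basal 8-week replicate 2, either basal 10-month replicate, or tumour 2 or 3 (adjusted p from 0.0558 to 0.129), and the Col9a2 call without basal 8-week replicate 2, basal 10-month replicate 2, or tumour 2 or 3 (adjusted p from 0.069 to 0.136). Col4a1 and Col4a2 were not called (-0.56, limma adjusted p = 0.342, and -0.96, adjusted p = 0.18). Col6a3 read 8.27, 6.39 and 9.07 against 4.27 to 6.20, each tumour above the normal basal range, but missed the threshold (2.53, limma adjusted p = 0.0775). Col1a1 and Col3a1 were not called (1.15 and 1.06, limma adjusted p = 0.451 and 0.449). Among the epithelial markers, 5 of 8 basal ones were lower and 7 of 10 luminal ones higher in the same comparison, and 6 of 12 endothelial markers were lower. Their part in the collagen differences was not tested.

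p53-deleted tumours held the highest fibrillar levels of the 3 tumour groups by group mean. Against normal luminal cells 17 collagen genes were higher and 1 lower (12.1% and 11.8% of all genes), with medians of 0.77 over the collagen genes and 0.06 over all genes. Of 9 tested fibrillar genes 8 were higher. These included Col11a2, which lay near the filter limit, at 4.17 and 4.13 against 3.51 to 3.79 in normal luminal cells. Col5a2 read 9.89 and 10.27 against 3.86 to 4.78 in normal luminal cells, a rise of 5.96 ± 1.07 (limma adjusted p = 0.0009). Of the 4 luminal values 3 lay near or below the filter limit, and the dimmer probe set of Col5a2 gave a rise of 2.87. Col1a1 read 11.04 and 11.51 against 5.66 to 8.32, a rise of 4.80 ± 1.21 (27.9-fold, limma adjusted p = 0.00783), and Col3a1 read 10.86 and 11.04 against 5.20 to 8.50, a rise of 4.75 ± 1.12 (limma adjusted p = 0.00507). Both tumours lay above all 4 luminal arrays for these genes. Col5a1 rose by 4.73 ± 0.94 and Col5a3, another type V chain, by 4.38 ± 0.92. Dimmer second probe sets gave 0.65 for Col5a3 and 3.04 for Col3a1. Col27a1 rose by 3.00 ± 0.60 and Col11a1 by 2.66 ± 0.69. Col6a1 and Col6a2 rose by 3.63 ± 1.01 and 4.15 ± 1.01, while Col6a3, at 8.24 and 8.89, was not called (1.12, limma adjusted p = 0.534). Col4a2, Col4a1 and Col7a1 rose by 2.71 ± 0.60, 1.44 ± 0.48 and 2.09 ± 0.57, whereas Col4a5 and Col4a6 were not called (0.20 and -0.19). Col20a1 was lower by -0.65 ± 0.14, at 3.66 and 3.60, below the filter limit, against 4.11 to 4.45 in normal luminal cells. With 2 tumours, the count fell to 8 without p53-deleted tumour 1 and 9 without tumour 2. Col1a1 (adjusted p = 0.0515 and 0.0619) and Col6a1 (0.0765 and 0.0887) lost their calls without tumour 1 and without tumour 2. Col4a2 (0.085) and Col27a1 (0.0502) lost theirs without tumour 1, and Col6a2 (0.0538) and Col11a1 (0.0847) without tumour 2. Of 10 fibroblast markers 6 were higher and 1 lower, and their mean was 7.26 and 7.81 in these tumours, against 5.36 to 5.81 in normal luminal cells, and Pdgfra was 5.50 and 4.82, above its level on every sorted array. Of 10 luminal epithelial markers 6 were lower (list mean 7.43 and 8.24, against 9.65 to 9.78 in normal luminal cells), and 3 of 8 basal ones were higher. The part of such cells in the fibrillar rise was not tested.

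Between tumour groups few differences passed the test. K5-PIK and K8-PIK tumours differed in 0 of 35 tested collagen genes by limma, and 0 had an unadjusted p below 0.05, with 0% of all genes called. The median difference was -0.01 over the collagen genes and -0.04 over all genes. p53-deleted and K8-PIK tumours differed in 1 collagen gene (0.325% of all genes). Col4a6 read 5.99 and 5.81 in the p53-deleted tumours, below the 6.80 to 8.08 of all 7 K8-PIK tumours, and was lower by -1.66 ± 0.30 (3.16-fold, limma adjusted p = 0.0493). That call was lost without either p53-deleted tumour (adjusted p = 0.259 and 0.16) or without K8-PIK tumour 2, 5, 6 or 7 (adjusted p from 0.0602 to 0.103). Its X-linked neighbour Col4a5 read 5.98 and 7.72 in the p53-deleted tumours and was not called (-1.29 ± 0.42, limma adjusted p = 0.148). The differences of all 11 fibrillar genes were above 0 with a median of 1.23, against 0.04 over all genes. None of the 9 tested was called, and Col1a2 and Col24a1, near the floor, were not tested.

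Genes that work with collagens were counted in the same comparisons. Of all genes, 10.4% were higher in normal basal than luminal cells at 8 weeks, and 17.6% higher and 25.8% lower at 10 months. Against the normal cells, 4.47% of all genes were higher in K8-PIK tumours and 12.1% in p53-deleted tumours, and 14.5% were lower in K5-PIK tumours. Of 12 other basement membrane genes, 10 were higher in normal basal than luminal cells at 8 weeks, among them the laminin chains Lama3 (3.82), Lama1 (2.86) and Lamb1 (2.62) and the linker Nid1 (2.44), and 9 were higher at 10 months. In K8-PIK tumours 5 of these were higher than in normal luminal cells, including Lamb1 (1.88) and Nid1 (1.81). In K5-PIK tumours 6 were lower than in normal basal cells, including Lamb3 (-2.36) and Lama3 (-2.36). Of 16 genes for collagen folding and modification, 5 were higher in normal basal cells at 8 weeks, led by the lysyl hydroxylase Plod2 (2.15) and the collagen chaperone Serpinh1 (1.54). At 10 months 7 were higher, with Plod2 at 3.73 and Serpinh1 at 2.43, and 3 were lower, P3h4 (-1.05), Ppib (-0.70) and P4hb (-0.54). In p53-deleted tumours 9 of the 16 were higher than in normal luminal cells, with Plod2 at 3.93 and Serpinh1 at 2.68, and in K8-PIK tumours 3 were, with Plod2 at 2.32.

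The cross-linking enzymes were high in the p53-deleted tumours and in some K8-PIK tumours. Of 9 tested genes for procollagen processing and cross-linking, 7 were higher in p53-deleted tumours than in normal luminal cells (12.1% of all genes). The lysyl oxidases Lox (5.15), Loxl3 (4.28) and Loxl1 (4.25) and the proteinase enhancer Pcolce (3.68) led. In K8-PIK tumours only Loxl3 (2.37) of the 9 was called, where 4.47% of all genes were higher. The mean over the 10 measured genes of this list was 6.99 and 7.52 in the p53-deleted tumours. It was 6.88 and 7.59 in K8-PIK tumours 2 and 3, and 4.66 to 5.53 in the other K8-PIK tumours. Of 7 tested collagen receptors, the fibrillar collagen receptor Ddr2 was higher in normal basal cells by 1.67 at 8 weeks and 1.71 at 10 months, and in p53-deleted tumours by 3.80 over normal luminal cells. The epithelial collagen receptor Ddr1 was lower in those tumours (-1.05). Each of these differences was called by limma at an adjusted p below 0.05.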

How the data were processed

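Microarray expression was measured in 16 samples of sorted cells and 12 of tumour cells. The authors deposited log2 values for 45141 probe sets, and R 2.14.0 is named in the submitters' processing notes; background correction and normalization are not given in the sources used here. Array medians were 4.40 to 4.50. Probe sets with 1 annotated symbol gave 17097 genes, each read by its probe set with the highest mean (67 probe sets for the 41 collagens). No further normalization was applied. The number of arrays limits the precision.

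Genes above the array's 40th percentile on at least 2 arrays were tested with limma 3.58.1 in R 4.3.3, with two-sided tests and Benjamini-Hochberg adjustment, in fits of the sorted arrays, of the tumours, or of all 28 (tumours against normal cells, and the F test). The fits were tested on simulated data. Named genes were the 10 largest called rises and falls per comparison, a fixed set of types I, III, IV, VI and VII chains, and chain partners. The collagen genes and other lists were chosen with earlier results of these data known. Alternatives were all arrays in one fit, no filter, the mean of probe sets, a trended robust prior, quantile normalization, a replicate block and leaving out each array. The array check of the targeted gene was not analysed here.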

Additional observations from a re-analysis of the deposited data

Results flagged for a closer look

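Among the 7 K8-PIK tumours, 1 array stood far from the others for 3 collagen genes. Col10a1 was 6.69 in tumour 3, with the nearest other tumour at 4.75. Col2a1 was 8.32 in tumour 5, with the next at 5.81. Col9a3 was 5.97 in tumour 3, with the nearest at 8.52. Dixon's 95% limit marks about 1 group in 20 by chance, and 41 genes were examined, so these gaps are given as values only. The basal-luminal gap of Col27a1 was smaller in K5-PIK than in normal cells at 10 months by the interaction term of the limma fit (-1.36 ± 0.35, adjusted p = 0.0396). The dimmer probe set of Col27a1 averaged 6.41 and 5.00 in normal basal and luminal cells, and 6.11 and 4.95 in K5-PIK cells.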

How the results depend on the processing

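No result reversed its direction under any alternative run. In a fit of all 28 arrays, the collagen genes called between the gates were 10 in normal cells at 8 weeks, 9 in K8-PIK and 11 in K5-PIK cells, 0 for either K5-PIK gate against normal cells, 0 for age in basal cells, 0 for the K5-PIK gap and 2 for p53-deleted against K8-PIK tumours. The K5-PIK gap had 0 with the mean of probe sets. p53-deleted against K8-PIK tumours had 0 with no filter, the trended robust prior or quantile normalization. Replicate numbers were not taken to pair samples, since the labels do not say so and 12 of 28, not all, pairs of sorted groups had a correlation of deviations over 0.1 (median 0.0834). With the replicate block, the counts were 3 for the K5-PIK gap, 1 for the change of the normal gap with age, 1 for K5-PIK against K8-PIK tumours, 0 for p53-deleted against K8-PIK tumours and 14 for K5-PIK tumours against normal basal cells. The causes were not tested.

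Leaving out 1 array gave 16 to 22 calls between the normal gates at 8 weeks, 20 to 22 at 10 months, 15 to 17 in K8-PIK and 17 to 20 in K5-PIK cells. It gave 0 to 3 for K8-PIK luminal against normal cells, 0 to 3 for K5-PIK basal, 0 to 5 for K5-PIK luminal, 0 to 0 for age in basal cells, 0 to 1 for the K8-PIK gap and 0 to 3 for the K5-PIK gap. For tumours it gave 0 to 1 for p53-deleted against K8-PIK, 6 to 19 for K8-PIK against luminal, 4 to 6 for K5-PIK against basal and 8 to 18 for p53-deleted against luminal, and 19 to 26 for the F test. Of 87 called values of single genes, 86 stayed called with the replicate block and 83 with no filter, and of 59 refitted on all arrays 31 stayed called. The number of arrays, with 2 in most groups, limits all counts. Signal near or below the filter limit limits Col1a2, Col11a2, Col4a3 and the luminal values of Col5a2 and Col6a4, among others. It also limits the 10-month normal basal values of Col8a2 and the p53-deleted tumour values of Col20a1.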
